A study of Mus musculus with 6 samples.

Results

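The endoplasmic reticulum (ER) genes examined here encode the machinery that takes a new secretory protein into the ER, folds it, and senses when folding falls behind. They were chosen by gene name and function, not by measured values, although earlier results of these data were known. They are 38 genes in 5 classes: 11 for translocation, 9 chaperones and their partners, 7 enzymes of disulfide formation, 7 of ER-associated degradation (ERAD), and 4 stress sensors and effectors. All 38 had a probe on the array, and together they held 60 of its 45281 probes, and they are 38 of the 30854 gene symbols in the table.

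mRNA was measured in mGLUTag L-cells, an immortalized male mouse cell line that models the intestinal L-cell, the source of glucagon-like peptide-1 (GLP-1), with 6 samples on 1 Illumina BeadChip array each. All cells had been held in low serum, treated with forskolin, which raises cAMP, to synchronize their clocks, and returned to growth medium. Both groups share that treatment and differ in the time of collection: 3 samples at 4 h, the peak of the clock gene Arntl (which encodes BMAL1) by the study's account, and 3 at 16 h, its trough. The groups therefore model 1 cell line at 2 times, with no unsynchronized sample among those used here. Of 11 L-cell markers, 10 exceeded a limit set by the noise of each array on at least 3 arrays (Pcsk1 did so on 1 array only), as did 1 of 6 fibroblast markers (Col1a1), 2 of 5 enterocyte or goblet markers (Vil1 and Tff3) and 0 of 5 leukocyte markers.

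A secretory cell feeds peptides into the ER through the SEC61 channel, where the chaperone BiP, calreticulin and the protein disulfide isomerases fold them. Misfolded chains are drawn back to the cytosol and degraded, and an excess of them activates the unfolded protein response through IRE1, PERK and ATF6. The transcription factors made by this response, among them spliced XBP1 and cleaved ATF6, act on ER stress response elements in the promoters of chaperone genes. In the L-cell, this route carries proglucagon, the precursor of GLP-1.

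The members' promoters are shown first, because several hold a shared sequence. The genes were not chosen by sequence. Their function is tied to the response that acts through the ER stress response element, however, so its share among them is no independent result. RefSeq promoters (assembly GRCm38.p6, 250 bases before to 50 after the start) were found for 32 of the 38 members and searched on both strands. The ER stress response element (ERSE), searched as CCAAT, then 9 bases of any kind, then CCACG, occurred in 10 of the 32 (31.25%), against 37 of 27025 genes in the table (0.137%) and 39 of 32851 promoters (0.119%). Each element is given 5′ to 3′ in capitals with 6 flanking bases on either side, on the strand on which it reads forward.
Hspa5 (element reads with the gene), chr2:34772019-34772049, plus strand: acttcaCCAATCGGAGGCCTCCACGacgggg
Hsp90b1 (element reads with the gene), chr10:86705632-86705662, minus strand: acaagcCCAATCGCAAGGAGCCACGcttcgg
Hsp90b1 (element reads against the gene), chr10:86705527-86705557, plus strand: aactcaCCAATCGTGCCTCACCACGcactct
Calr (element reads against the gene), chr8:84847069-84847099, plus strand: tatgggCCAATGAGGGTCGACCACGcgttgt
Canx (element reads with the gene), chr11:50325794-50325824, minus strand: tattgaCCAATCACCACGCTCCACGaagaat
Dnajc3 (element reads with the gene), chr14:118937821-118937851, plus strand: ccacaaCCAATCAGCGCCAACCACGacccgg
Pdia6 (element reads with the gene), chr12:17266485-17266515, plus strand: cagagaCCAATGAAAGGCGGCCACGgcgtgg
Ero1lb (element reads against the gene), chr13:12565676-12565706, minus strand: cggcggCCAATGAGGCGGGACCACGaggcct
Creld2 (element reads against the gene), chr15:88819514-88819544, minus strand: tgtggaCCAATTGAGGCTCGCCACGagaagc
Derl3 (element reads against the gene), chr10:75893236-75893266, minus strand: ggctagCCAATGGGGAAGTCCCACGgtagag
Syvn1 (element reads with the gene), chr19:6046526-6046556, plus strand: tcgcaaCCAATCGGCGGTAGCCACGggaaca
The elements lay between 44 and 212 bases before the start of their gene. Hsp90b1, the ER form of HSP90, carried 2 copies.

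A second form of the element, ERSE-II, was searched as ATTGG, then 1 base of any kind, then CCACG, and does not contain the first form. It was found in 2 of the 32 members and in 12 of the 27025 genes (0.0444%), and it is printed in the same way.
Dnajb11 (element reads with the gene), chr16:22857846-22857868, plus strand: gcggcgATTGGCCCACGcctggc
Herpud1 (element reads with the gene), chr8:94386371-94386393, plus strand: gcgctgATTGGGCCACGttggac
Both members encode proteins of the folding route: DNAJB11 is a J-domain partner of BiP, and HERPUD1 is a membrane protein of the degradation complex. Together, 12 of the 32 members carried either form, with none carrying both, and 20 carried neither.

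The other sequences searched were not shared in that way. The unfolded protein response element, TGACGTGG, occurred in 0 of 32 members and in 0.714% of genes. The cAMP response element, TGACGTCA, occurred in 0 of 32 and in 2.03% of genes. The E-box CACGTG, which BMAL1 can bind, occurred in 4 of 32 (12.5%), in Calr, Derl3, Dnajb9 and Ssr1, against 8.09% of genes. CCACG read in reverse is part of TGACGTGG, and CACGTG can begin within CCACG, so these searches can overlap. A match describes letters only, and its absence says only that these letters are not in this window.

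The 250 bases before the start are given for 2 members, with the ERSE and any E-box in capitals. Hspa5 encodes BiP, the central chaperone of the response, and Derl3 is a member that holds both an ERSE and an E-box.
Hspa5, chr2:34771840-34772089, plus strand: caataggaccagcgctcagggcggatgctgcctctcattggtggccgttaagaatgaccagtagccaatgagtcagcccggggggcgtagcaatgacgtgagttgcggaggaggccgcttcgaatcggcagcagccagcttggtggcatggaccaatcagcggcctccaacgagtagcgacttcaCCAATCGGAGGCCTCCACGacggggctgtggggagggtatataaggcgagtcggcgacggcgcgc
Derl3, chr10:75893148-75893397, plus strand: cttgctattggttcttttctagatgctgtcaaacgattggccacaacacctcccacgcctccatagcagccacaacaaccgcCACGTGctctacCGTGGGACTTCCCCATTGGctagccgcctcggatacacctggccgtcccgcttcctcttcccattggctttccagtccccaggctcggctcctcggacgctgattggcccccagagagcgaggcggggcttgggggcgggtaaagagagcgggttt
The upstream stretch of Derl3 held an E-box a few bases from its ERSE, the element here reading against the gene, and that of Hspa5 held the ERSE alone of the sequences searched.

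To determine whether these transcripts differed between the 4-hour and 16-hour time points, each probe was tested with limma after quantile normalization, and values are given as normalized log2 intensity or as deposited intensity. Intensities of different probes are not compared with each other. A noise limit was set on each array from its values below 0, and 34 of the 38 members exceeded it on at least 3 arrays, with 32 above it on all 6. Canx (the chaperone calnexin), Ero1l (an oxidase of disulfide formation), Derl1 (a channel protein of ERAD) and Atf6 exceeded it on no array. They are given no change of their own and enter only the counts and medians over all members of a class or list.

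No member passed the adjusted threshold of 0.05 in either direction. Over all probes, limma called 2 (0.00442%) as higher at 4 h and 2 (0.00442%) as lower. At an unadjusted p under 0.05, 2 members were higher (Srpr and Ssr1) and 2 lower (Sec61b and Derl3, the latter above the noise limit at 16 h only) of 38, against 2.82% and 2.6% of all probes, and against 5.82% and 5.19% of the 12191 symbols with a mean above the noise limit. The time points did not overlap for 4 members with higher values at 4 h, Srpr, Ssr1, Eif2ak3 and Atf6, the last of them below the noise limit. They did not overlap for 2 members with lower values, Sec61b and Derl3. Over all probes, 5.54% and 5.38% did not overlap in these directions, and over the 12191 symbols 6.57% and 5.67%. Changes, given throughout as 4 h minus 16 h, ranged from -0.34 to 0.27 on the log2 scale. The 95% interval of the change held 0 for 30 of the 34 members above the limit, and the median distance from the change to the end of its interval was 0.22.

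**Figure D1:**
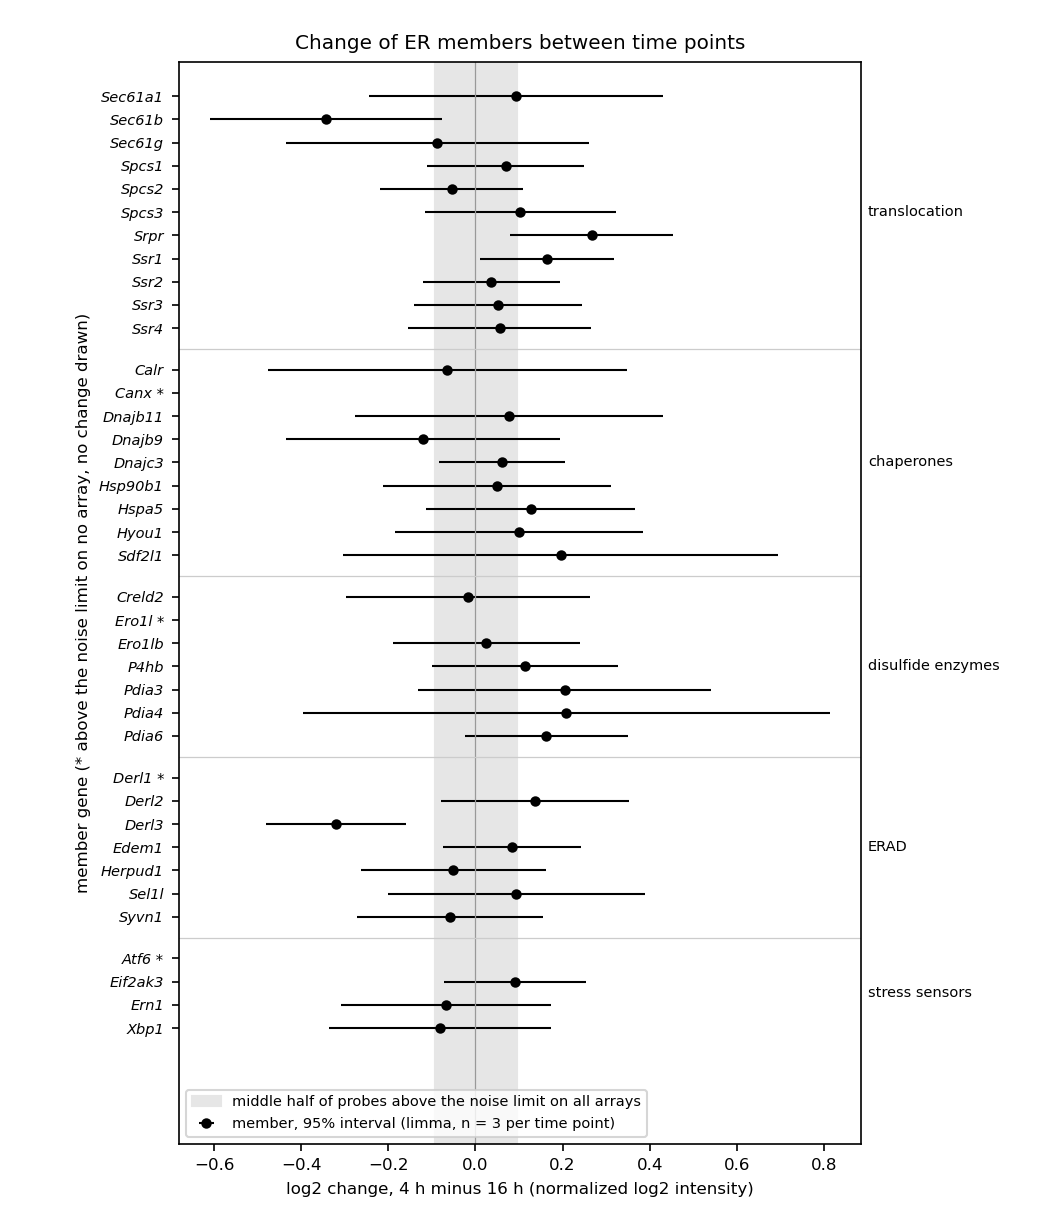
Log2 change of each of the 34 members above the noise limit on at least 3 arrays, 4 h minus 16 h (horizontal axis), with its 95% interval from limma (3 arrays per time point), by class. The grey band is the middle part of all probes above the noise limit on every array, from -0.093 to 0.095; Srpr, Ssr1, Sec61b and Derl3 (above the noise limit at 16 h only) are the members whose interval does not reach 0, and members marked with an asterisk did not exceed the noise limit anywhere and have no point.

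The deposited intensities were higher overall at 4 h. The mean over all probes of an array was 354, 291 and 322 at 4 h and 246, 245 and 216 at 16 h, and of the probes that exceeded the noise limit throughout, 98.2% were brighter on average at 4 h. Among the members, 33 of 34 had a higher deposited mean at 4 h, with Derl3 as the exception. For those 33, the log2 ratio of deposited means lay between 0.15 and 1.02. The median was 0.60 over the 34 members and 0.55 over all such probes, and 18 of the 34 members lay above the latter. Array brightness and a general change of mRNA cannot be told apart in these data, nor can fewer cells and less RNA per cell. The normalized changes below stand against the rest of each array.

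**Figure D2:**
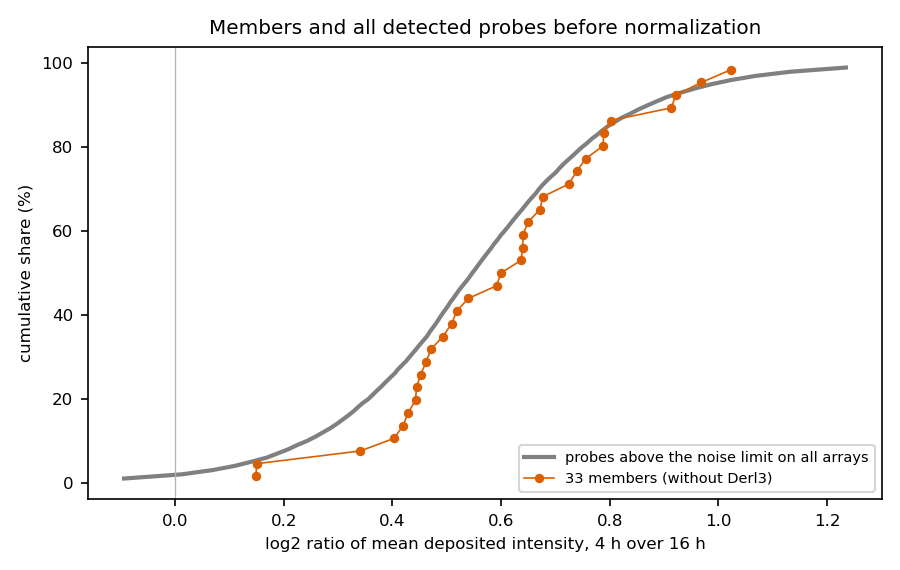
Distribution of the log2 ratio of mean deposited intensity, 4 h over 16 h, for the members above the noise limit other than Derl3, whose mean at 4 h was near 0, and for all probes above the limit on all 6 arrays. The members lie to the right of 0, between 0.15 and 1.02, within the bulk of the other probes, whose median is 0.55.

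The translocation genes, the largest class with 11 of the 38 members, held 3 of the 4 members with an unadjusted p under 0.05 in limma. Of the 12191 symbols with a mean above the noise limit, 11% had such a p in either direction, and of all probes 5.42%. Srpr encodes the receptor at the ER membrane that receives the signal recognition particle with its ribosome. Its normalized log2 intensity was 7.27, 7.43 and 7.34 at 4 h and 7.04, 7.21 and 6.99 at 16 h, a change of 0.27 (SE 0.082, n = 3 per time point, limma adjusted p = 0.718, unadjusted 0.0103). Every 4 h array lay above every 16 h array. In deposited units, its mean was 120 ± 10.7 at 4 h and 58.9 ± 14.8 at 16 h (SD, n = 3).

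Ssr1, a subunit of the translocon-associated protein complex beside the channel, measured 8.05, 8.11 and 8.05 at 4 h against 7.89, 7.98 and 7.85 at 16 h. The change was 0.16 (SE 0.068, limma adjusted p = 0.893), again with no overlap between time points. Its other 2 probes did not exceed the noise limit on any array. Ssr2, Ssr3 and Ssr4, which encode the other subunits of that complex, had changes of 0.036, 0.052 and 0.056, each with overlapping time points.

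Sec61b, the small beta subunit of the channel, ran the other way. It measured 9.77, 9.76 and 9.44 at 4 h and 10.16, 9.80 and 10.04 at 16 h, a change of -0.34 (SE 0.118, limma adjusted p = 0.794). All 16 h arrays lay above all 4 h arrays, although the nearest arrays were close. A second probe gave -0.32 with overlapping time points. In deposited units Sec61b was 881 at 4 h and 794 at 16 h, a log2 ratio of 0.15, at the lower end of the 33 members. The pore subunit Sec61a1 and the gamma subunit Sec61g gave 0.093 and -0.088, with intervals that held 0. Spcs1, Spcs2 and Spcs3, subunits of the peptidase that removes the signal peptide, gave 0.069, -0.055 and 0.10, Spcs2 being above the noise limit on 5 arrays. Over the class, 8 of 11 changes lay above 0 and the median was 0.056, beside 0.0014 for all probes that exceeded the noise limit throughout.

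**Figure D3:**
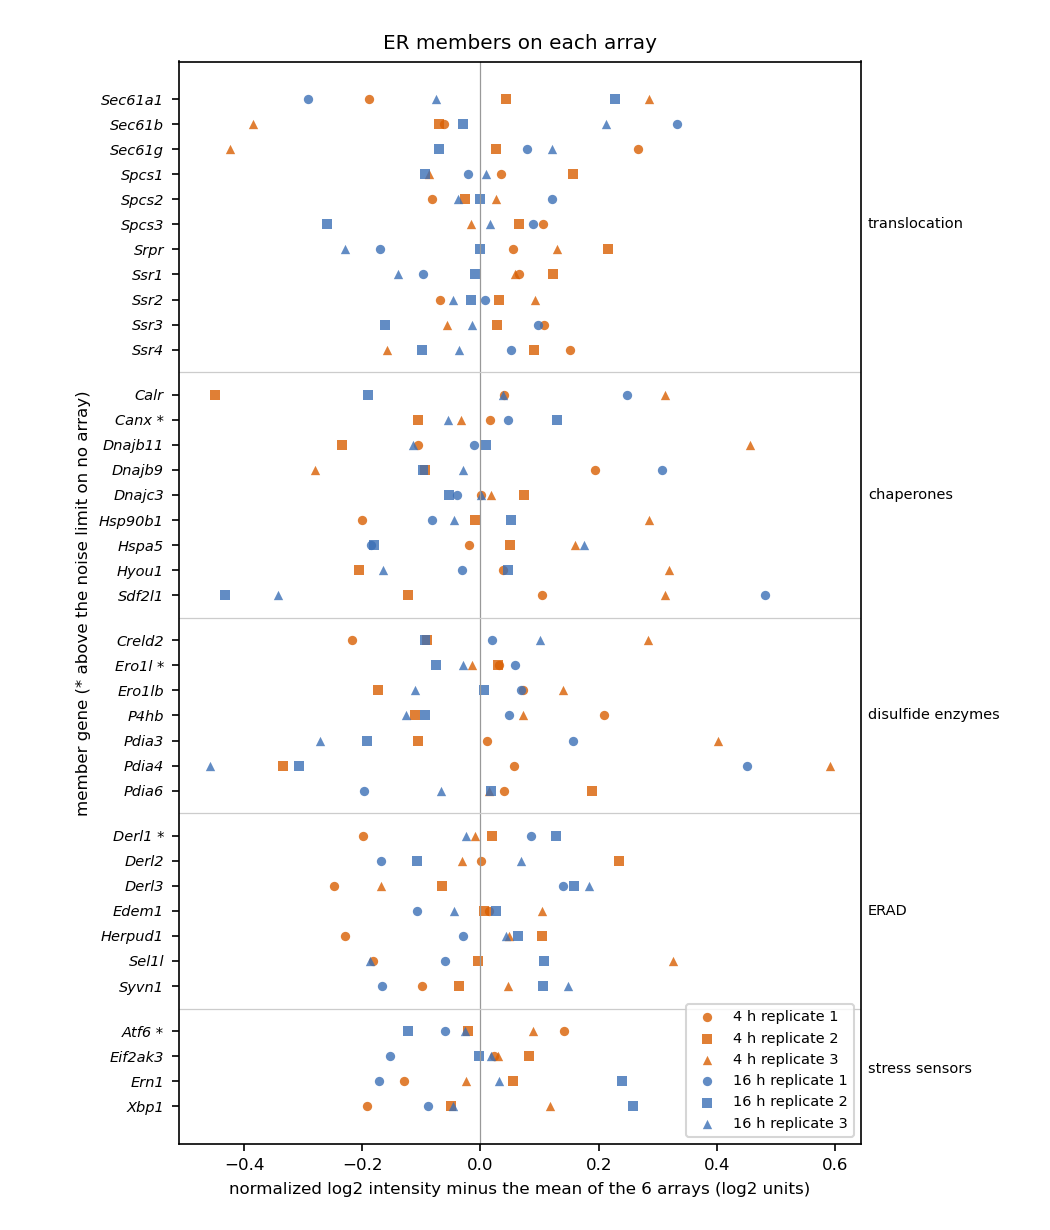
Normalized log2 intensity of every member on each array minus its mean over the 6 arrays (horizontal axis, log2 units), with colour for the time point and shape for the replicate, grouped by class. The points of both times interleave for most members; Srpr, Ssr1, Eif2ak3, Sec61b, Derl3 and Atf6, the last of them below the noise limit, are those in which they do not.

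Among the chaperones, Hspa5 encodes BiP, which binds nascent chains and holds the stress sensors inactive. Its values were 6.75, 6.82 and 6.93 at 4 h and 6.58, 6.59 and 6.94 at 16 h, so that 1 of the 16 h arrays held the highest value and the other 2 the lowest. The change was 0.13 (SE 0.106, limma adjusted p = 0.959), and 0.33 without background correction. It was 0.068 without replicate 1, 0.069 without replicate 2 and 0.25 without replicate 3 at 16 h, and 0.077 without replicate 3 at 4 h. The deposited mean was 62.3 ± 13.4 at 4 h and 32.9 ± 7.03 at 16 h, above the noise limits of 9.2 to 14 on all arrays.

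Dnajc3, a co-chaperone of BiP that also restrains the kinase PERK, varied least of the 34 members. It measured 7.53, 7.60 and 7.54 at 4 h and 7.49, 7.47 and 7.53 at 16 h, a range of 0.126 over the 6 arrays and a change of 0.061 (SE 0.064, limma adjusted p = 0.962). The highest 16 h array reached the lowest of the 4 h arrays.

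Sdf2l1, an ER-resident partner of the J-domain proteins, varied far more. Its values were 8.80, 8.57 and 9.00 at 4 h and 9.17, 8.26 and 8.35 at 16 h, with the highest and the lowest value both at 16 h. The change of 0.20 (SE 0.221, limma adjusted p = 0.966) was smaller than that spread. The others of the class were Hsp90b1 (0.050), the calcium-binding lectin chaperone Calr (-0.065), the J-domain proteins Dnajb11 (0.077) and Dnajb9 (-0.12), and Hyou1 (0.10), the nucleotide exchange factor of BiP. The second probe of Dnajb9 gave 0.062, so its sign depends on the probe. The class median was 0.061, with 6 of 9 changes above 0, and the median of each replicate varied by 0.142 (SD) between arrays of a time point. No class median was tested against another.

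The enzymes of disulfide formation had a class median of 0.11, with 6 of 7 changes above 0 and an SD between replicates of 0.110. Pdia6, an isomerase that binds BiP, measured 8.26, 8.41 and 8.23 at 4 h and 8.02, 8.24 and 8.15 at 16 h. Its change was 0.16 (SE 0.082, limma adjusted p = 0.920), and the highest 16 h array lay just above the lowest 4 h array. Pdia3, which folds glycoproteins with calreticulin, measured 12.27, 12.15 and 12.66 at 4 h and 12.42, 12.07 and 11.99 at 16 h (0.20, SE 0.149, limma adjusted p = 0.953). P4hb, the founding protein disulfide isomerase, measured 12.24, 11.92 and 12.10 at 4 h and 12.08, 11.93 and 11.90 at 16 h (0.11, SE 0.094, limma adjusted p = 0.959). Both overlapped between time points.

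Pdia4 had the widest range over the arrays of any member, 1.05 on the log2 scale. This isomerase measured 8.94, 8.55 and 9.47 at 4 h and 9.33, 8.57 and 8.42 at 16 h, a change of 0.21 (SE 0.267, limma adjusted p = 0.970). The values split within each time point rather than between them. Ero1lb, an oxidase that recharges the isomerases, and Creld2, an ER protein induced by stress, gave 0.025 and -0.017, and the second probe of Creld2 gave the opposite sign.

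**Figure D4:**
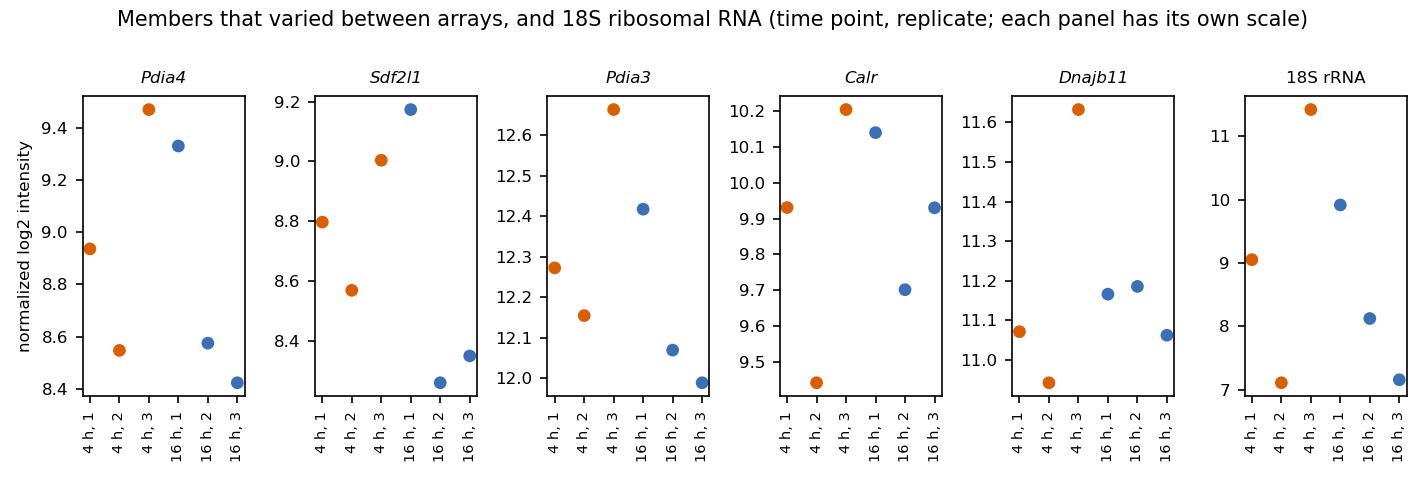
Normalized log2 intensity of Pdia4, Sdf2l1, Pdia3, Calr, Dnajb11 and 18S ribosomal RNA on each array, 1 panel per gene with its own vertical scale. The members shown are a selection of those with a wide range. Sec61b and Sec61g (ranges 0.72 and 0.69, against 0.67 for Pdia3) are not shown. Both were lowest on replicate 3 at 4 h, the array highest in 18S. In Pdia4, Sdf2l1, Pdia3 and, narrowly, Calr, the 3 highest points are replicates 1 and 3 at 4 h and replicate 1 at 16 h. The 18S probes are also highest on those arrays. In Dnajb11 the highest points are on other arrays in part.

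The level of 18S ribosomal RNA, the RNA of the small ribosomal subunit, also differed within a time point. On the log2 scale, its probes averaged 8.50, 6.91 and 10.57 at 4 h against 9.24, 7.71 and 7.02 at 16 h. The 3 arrays with the highest 18S values were also the 3 highest for Pdia4, Sdf2l1, Pdia3 and P4hb, genes picked here for that match. A block by the midpoint of the 18S range puts 1 array of each time point on its high side, which leaves every change as it was (0.21 for Pdia4 and 0.20 for Sdf2l1). A block of the 3 highest arrays, added after the values were seen, lowers the changes of Pdia4, Sdf2l1, Pdia3 and P4hb by its construction. The part of the 18S level in their values was therefore not tested by either block.

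The count of directions rested in part on 1 array. Of the 34 members above the noise limit, 12 (35.3%) had their highest value on replicate 3 at 4 h, against 20.6% of 12191 symbols, among them 4 of 8 chaperones and 4 of 6 disulfide enzymes. With all arrays, 25 of 38 changes lay above 0 (50.2% of all probes and 50.4% of the 12191 symbols did) and the median over members was 0.058. Without that array, 18 of 38 lay above 0, the median was -0.0044 and that of the chaperones was -0.032. A linear scaling of the arrays gave 20 of 38 and a median of 0.014.

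The range over the 6 arrays was above the median of the 12191 symbols (0.391) in 18 of 34 members and above their 95th percentile (0.785) in 2, Pdia4 and Sdf2l1. Calr, Sec61b, Sec61g, Dnajb11 and Pdia3 followed, with ranges of 0.76, 0.72, 0.69, 0.69 and 0.67. These wide ranges fell on genes of several classes.

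In ERAD, Derl3 exceeded the noise limit at 16 h only, and it passed the filter on dim probes through those arrays alone. It encodes a derlin of the channel that returns misfolded chains to the cytosol, and its single probe measured 5.91, 6.10 and 5.99 at 4 h and 6.30, 6.32 and 6.35 at 16 h. All 16 h arrays lay above all 4 h arrays (limma adjusted p = 0.397). In deposited units the values were -2.7, 5.7 and 1.5 at 4 h (mean 1.5) against 14.5, 15 and 13.4 at 16 h (mean 14.3). None of the 4 h values was above the noise limit, so the 4 h level is only a bound. The limits were 14, 11.6 and 12.2 at 4 h and 9.8, 10.5 and 9.2 at 16 h. With 4 h placed at its limit, the measured ratio of 16 h to 4 h is at least 1.09-fold, and no difference between the time points was called. The fitted difference is no measure of size, since it followed the treatment of background: -0.32 as processed here, -0.62 with an offset of 16 and -3.16 without background correction. Its adjusted p lay between 0.0842 and 0.999 over the alternatives, in all of which the change stayed negative.

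The other ERAD genes above the noise limit had intervals that held 0. Derl2, a further derlin, measured 8.26, 8.50 and 8.23 at 4 h and 8.09, 8.15 and 8.33 at 16 h (0.14, SE 0.095, limma adjusted p = 0.949). Edem1, a lectin that marks glycoproteins for removal, measured 6.36, 6.36 and 6.45 at 4 h and 6.24, 6.38 and 6.30 at 16 h (0.084, SE 0.070, limma adjusted p = 0.958). In both, 1 of the 16 h arrays reached into the 4 h values. Herpud1, the adaptor Sel1l and the ubiquitin ligase Syvn1 gave -0.051, 0.094 and -0.059, and a further probe of each of Herpud1 and Sel1l gave the opposite sign. The class median was -0.051 (0.017 without Derl1, which lay below the noise limit), with 3 of 7 changes above 0, and an SD between replicates of 0.105.

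The sensors and effectors of the response gave small changes. Ern1 encodes IRE1 alpha, which splices Xbp1 mRNA. It measured 8.40, 8.58 and 8.50 at 4 h and 8.36, 8.77 and 8.56 at 16 h. Its change was -0.067 (SE 0.106, limma adjusted p = 0.979). Its 3 probes lay between -0.093 and -0.067. Xbp1 itself, the transcription factor made from the spliced mRNA, measured 10.83, 10.98 and 11.14 at 4 h and 10.94, 11.28 and 10.98 at 16 h, a change of -0.082 (SE 0.113, limma adjusted p = 0.974). The time points overlapped for both. Spliced and unspliced Xbp1 mRNA were not separated here.

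Eif2ak3 encodes PERK, the kinase that slows translation under ER stress. It measured 6.78, 6.84 and 6.79 at 4 h and 6.61, 6.76 and 6.78 at 16 h, a change of 0.090 (SE 0.072, limma adjusted p = 0.957). Its time points did not overlap, but the nearest arrays gave almost the same value. Atf6, whose protein is cut in the Golgi to free a transcription factor, had deposited values of 10.2, 0 and 5.7 at 4 h against -1.2, -4.1 and 0.2 at 16 h, all below the noise limit. The class median was 0.012 with Atf6 and -0.067 without it, and neither cleavage nor phosphorylation was measured.

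**Figure D5:**
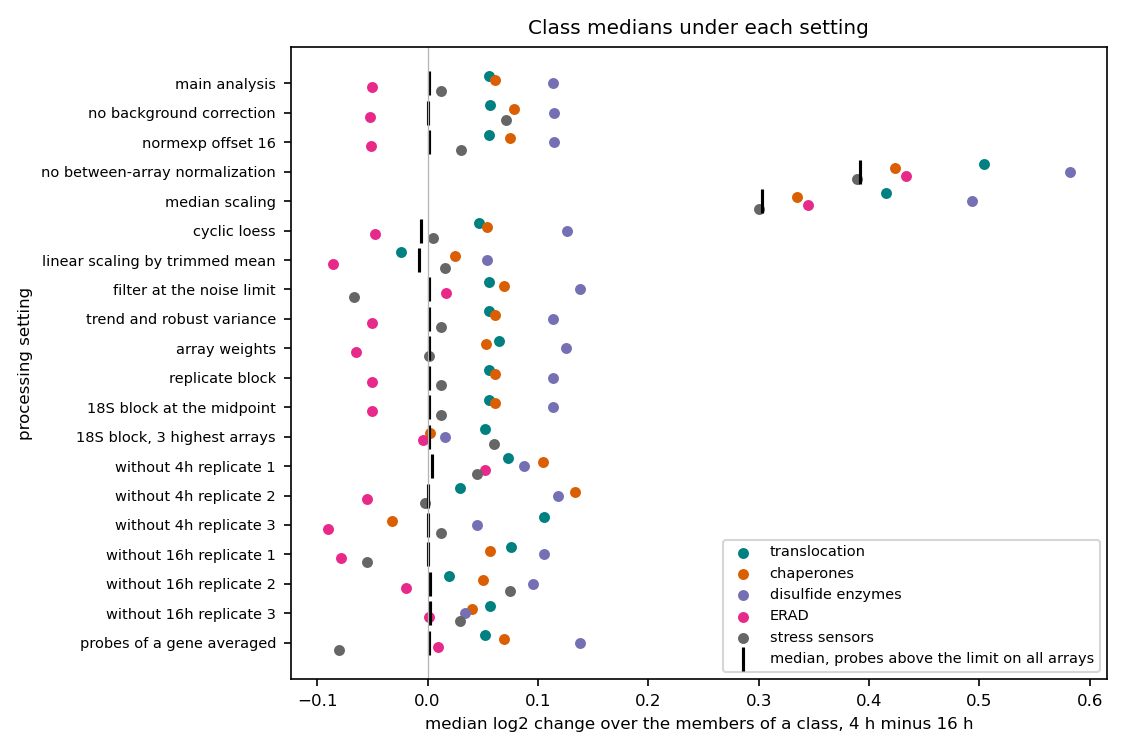
Median log2 change of each class, 4 h minus 16 h, under each processing alternative (points), with no test. The classes lie near 0 under most alternatives and between 0.30 and 0.58 where arrays were scaled to their median or not normalized to each other, settings that leave in the overall brightness of the 4 h arrays.

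The changes were also set beside the promoter elements. The 12 members with either ERSE form had a median change of 0.0043, with 6 above and 6 below 0 and a range of -0.32 to 0.16. The 20 with neither form had a median of 0.077. The 6 members without a promoter entry had a median of 0.097. These values are given with no test.

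Several probes of a gene were also compared with each other in direction. Of the 9 members with 2 or more probes above the noise limit, 4 had probes with the same sign (Ern1, Sec61b, Spcs1 and Spcs3) and 5 had probes with opposite signs (Creld2, Dnajb9, Herpud1, Sel1l and Ssr4). The disagreements were small, with no such probe of the 5 beyond 0.12 in size.

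Further genes of the same route were counted from lists made by function: other translocation genes (13), oligosaccharyltransferase subunits (10), other folding genes (16), other ERAD genes (16) and other stress response genes (16). Of these 71, 59 exceeded the noise limit on at least 3 arrays and 0 passed the adjusted threshold in limma. At an unadjusted p under 0.05, 6 were higher and 1 was lower at 4 h, beside 5.82% and 5.19% of the 12191 symbols and 2.82% and 2.6% of all probes. Of the 71 changes, 43 lay above 0, beside 50.4% of the symbols, and the median was 0.022. Of the 54 with a promoter entry, 0 carried the ERSE, 1 (Krtcap2) ERSE-II, 5 the unfolded protein response element (Txndc5, Txndc11, Ube2j1, Vcp and Nfe2l1), 8 the E-box and 1 the cAMP response element. The list medians ran from -0.041 (other translocation) to 0.069 (other stress response).

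Atf4, the transcription factor whose translation PERK favours, had the smallest p of these genes. It measured 12.01, 12.12 and 11.83 at 4 h and 11.55, 11.56 and 11.60 at 16 h, a change of 0.42 (SE 0.084, limma adjusted p = 0.338), with every 4 h array above every 16 h array. Trib3, a target of ATF4, gave 0.22 (limma adjusted p = 0.919). Rnf5, a ubiquitin ligase of ERAD, measured 9.79, 10.05 and 9.83 at 4 h and 10.38, 10.19 and 10.09 at 16 h, a change of -0.34 (limma adjusted p = 0.687).

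Tram1 and Srprb, which act at the channel and in the receptor with Srpr, gave 0.27 and 0.21 (limma adjusted p = 0.833 and 0.942). Txndc11 and Ppib, of the folding list, gave 0.27 and 0.22 (limma adjusted p = 0.878 and 0.919). The glycosylation subunits Dad1 and Rpn2 gave 0.091 and 0.13 (limma adjusted p = 0.955 and 0.969). None of the genes named from these lists passed the threshold.

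Arntl, the clock gene by which the time points were set, measured 7.38, 7.36 and 7.45 at 4 h and 6.80, 6.93 and 6.88 at 16 h. Its change of 0.52 (SE 0.069, limma adjusted p = 0.138) did not pass the threshold. It was 0.87 where arrays were not normalized to each other and 0.78 with median scaling, and passed the threshold in both (limma adjusted p = 0.0309 in each). Without background correction it was 0.95 (limma adjusted p = 0.156).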

How the data were processed

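Synchronized mGLUTag cells were collected at 4 h and 16 h (n = 3 each), 1 array per sample. The deposited table holds background-subtracted intensity per probe on a linear scale, which the authors did not normalize between arrays. On each array, 31.2% to 34.0% of values were negative. The scanner software is not given in the sources used here, and neither is whether samples came from separate cultures, so p-values measure only the spread between these samples. The 38 members and the other lists were chosen with earlier results of these data known.

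Background was modelled with normexp (offset 50) in limma 3.58.1 under R 4.3.3, followed by quantile normalization and log2 transformation. All 45281 probes were fitted with lmFit and eBayes, and the Benjamini-Hochberg adjustment of the two-sided p-values covered all of them (threshold 0.05). The offset shrinks changes of dim probes, and quantile normalization removes a change shared by most transcripts. The noise limit of an array was taken from its negative values, as the 99th percentile of their size. Where a gene had several probes, the 1 with the highest mean log2 intensity stood for it. Class medians cover all members of a class, those below the limit included.

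Values per array are given for the 3 members of each class that had the smallest p and exceeded the limit on at least 3 arrays, for Hspa5, Xbp1, Atf6, Ern1 and Eif2ak3, and for Arntl. In each other list, the 2 genes above the limit on at least 3 arrays that had the smallest p are named by their change, with values per array for Atf4 and Rnf5. Pdia4 was added after its values were seen. One gene chosen in this way is not reported here. With 3 arrays against 3, an exact permutation test cannot give a two-sided p under 0.1, and precision is limited by how few arrays there are. The fit was tested on simulated data of 45281 probes, where it recovered 195 of 200 changes of 1 on the log2 scale and called 20 unchanged probes. Those changes were placed only in probes brighter than the median probe above the limit on all arrays. Each was larger than any member change, of which the largest was 0.34 in size. Recovery of smaller changes, or of changes in dimmer probes, was not simulated. Alternatives covered the background correction, the between-array normalization, a filter on dim probes, the variance model, array weights, blocks by replicate number and by 18S level, leaving out each array, and averaging the probes of a gene. A planned search of protein C-termini was not run, and slide and scan date were not used here.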

Additional observations from a re-analysis of the deposited data

How the results depend on the processing

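Calls over all probes (2 higher and 2 lower at 4 h) became 19 and 10 with no background correction, 2308 and 0 where arrays were not normalized to each other, 832 and 0 with median scaling, 1 and 0 with trend and robust variance, and 0 and 0 with an offset of 16, with a filter at the noise limit and with the replicate number as a block. Cyclic loess gave 0 higher and the 18S block at the midpoint 5 higher. Each of the 6 fits without 1 array gave 0 to 0 in either direction. At an unadjusted p under 0.05, limma counted 2486 probes with the offset of 16, 1028 with the filter, 2489 with the replicate block and 1849 to 3219 without 1 array. Members called were 0 except without such normalization (11 of 38 higher, against 15.1% of the 12191 symbols above the limit) and median scaling (4 of 38, against 5.65%). Of the members given by value, Srpr, Ssr1, Dnajc3, Pdia6, Derl2 and Eif2ak3 (0.38 to 0.62) were called without normalization, and Srpr, Pdia6 and Derl2 (0.51 to 0.53) with median scaling. These settings moved the median of all probes above the limit by 0.39 and 0.30. The class medians were 0.50 and 0.42 for translocation, 0.42 and 0.33 for chaperones, 0.58 and 0.49 for disulfide enzymes, 0.43 and 0.34 for ERAD, and 0.39 and 0.30 for stress sensors. Sec61b reversed to 0.14 and 0.056, Xbp1 to 0.41 and 0.32, and Ern1 to 0.40 and 0.31. Linear scaling gave -0.024 for translocation, 0.025 for chaperones, 0.053 for disulfide enzymes and -0.086 for ERAD, with 0.11 for Pdia3 and 0.053 for P4hb. Without background correction, the stress sensors gave 0.071. Leaving out 1 array, Xbp1 ranged from -0.16 to 0.025 and Ern1 from -0.17 to 0.037, both above 0 without replicate 2 at 16 h, and Pdia4 from -0.036 without replicate 3 at 4 h to 0.49 without replicate 1 at 16 h. Sdf2l1 ranged from 0.029 (without replicate 2 at 16 h) to 0.49 (without replicate 1 at 16 h), Pdia3 from 0.052 (without replicate 3 at 4 h) to 0.33 (without replicate 1 at 16 h), P4hb from 0.037 (without replicate 1 at 4 h) to 0.20 (without replicate 2 at 4 h), and Derl2 from 0.054 (without replicate 2 at 4 h) to 0.21. Edem1 gave 0.050 without replicate 3 at 4 h and 0.053 without replicate 1 at 16 h, Pdia6 0.105 without replicate 1 at 16 h, and Dnajc3 0.040 without replicate 2 at 4 h. Eif2ak3 ranged from 0.037 (without replicate 1 at 16 h) to 0.13. Without background correction, dim members gave larger changes: Srpr 0.465, Edem1 0.37 and Eif2ak3 0.22, none of them called. With the 3 arrays highest in 18S as a block, chosen after seeing the data, Pdia4 gave -0.040, Sdf2l1 -0.0044 and Ern1 0.0066, and the class medians were 0.0020 for chaperones, 0.016 for disulfide enzymes, -0.0044 for ERAD and 0.060 for stress sensors. Leaving out 1 array, class medians ranged from 0.019 to 0.105 for translocation, -0.032 to 0.134 for chaperones, 0.034 to 0.118 for disulfide enzymes, -0.090 to 0.052 for ERAD and -0.055 to 0.075 for stress sensors. The deviations of same-numbered samples had correlations of 0.25, 0.173 and -0.493 for replicates 1 to 3. Samples of different numbers were not compared, so these values cannot decide whether the numbers pair the samples. With the replicate block, 0 members were called. Except as stated for scaling and no normalization, the cause of these moves was not tested. With 3 arrays per time point, changes under about 0.22 on the log2 scale could not be told from 0 for a typical member. That is the median distance to the end of a 95% interval, without adjustment for the number of probes. After adjustment, larger changes also went uncalled: 0.27 for Srpr, -0.34 for Sec61b and 0.52 for Arntl (limma adjusted p = 0.718, 0.794 and 0.138). The absence of calls therefore does not exclude changes above 0.22.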
